A study of Oryctolagus cuniculus with 12 samples.

Results

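The mRNA of 8 CC chemokine and CC chemokine receptor genes was examined in rabbit conjunctiva after glaucoma filtration surgery and in conjunctiva of eyes without surgery. The genes were chosen by name from the 20566 genes of the deposited table: the ligands CCL2, LOC103351517, CCL4, CCL5, and CCL20, and the receptors CCR1, CCR2, and CCR7. LOC103351517 has no gene symbol of its own and is described in that table as C-C motif chemokine 7. All 8 genes passed the filter on low counts, and they were chosen with earlier results of these data known. The tissue came from female Japanese white rabbits, which were 12 to 14 weeks old. Trabeculectomy (TL) was performed in the right eye: the surgeon opens a drain under a flap of sclera, so that aqueous humor collects in a bleb under the conjunctiva. Mitomycin C, an alkylating agent that limits scarring, was applied during the operation, which ended with betamethasone, a glucocorticoid, given by conjunctival injection and an antibiotic ointment. Conjunctiva with the bleb was taken 3 hours later (TL3h), after 3 days (TL3d), or on day 14 (TL14d), and conjunctiva of left eyes that had no operation was the control, with 3 libraries in each of the 4 groups. The effects of the wound, the fluid, mitomycin C, and betamethasone cannot be told apart in this design, and the time at which control tissue was taken is not given in the sources used here.

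CC chemokines are small secreted proteins that guide leukocytes along a gradient, and their receptors are G protein-coupled receptors on the leukocyte surface. CCL2 and CCL7 attract monocytes through CCR2, CCL5 and CCL7 act on CCR1, CCL20 acts on CCR6, and CCR7 leads mature dendritic cells and T cells toward CCL19 and CCL21 in lymphatic vessels and lymph nodes. In a healing filtration bleb, leukocytes that enter from the blood precede the fibroblasts that form scar tissue.

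On OryCun2.0, the rabbit assembly of the deposited values, CCL2 (gene ID 100009130) lies on chromosome 19 from 23720271 to 23721930 on the plus strand. LOC103351517 lies downstream on the same strand, from 23792019 to 23793601, with a gap of 70088 bases from CCL2. Between them are CCL11 (23739202 to 23742061) and a gene with the symbol CCL7 (23731547 to 23733738), so 2 genes of this cluster carry the description of chemokine 7. CCL5 (24923608 to 24932154, minus strand), CCL4 (25035471 to 25045636, plus strand), and CCR7 (41675664 to 41685295, minus strand) are also on chromosome 19. CCL20 is on chromosome 7 from 169685845 to 169689972. CCR1 (14441839 to 14448390, minus strand) and CCR2 (14542070 to 14547699, plus strand) are on chromosome 9.

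The libraries held total counts between 27111348 and 38591425. Levels are given as CPM, which are counts scaled to a common library size after TMM normalization. A library with a count of 0 could hold up to 3 counts at 95% confidence, and 3 counts correspond to 0.0712 to 0.124 CPM. A change was called where q, the p-value of the quasi-likelihood test in edgeR adjusted by the Benjamini-Hochberg method over all 14835 genes tested, was 0.05 or less. The libraries within a group are separate samples by their labels, and where nothing ties them to separate animals, the p-values measure only the spread between these samples. The TL14d libraries were the least alike. Across 13253 genes, TL14d replicates 1, 2, and 3 had mean correlations of 0.883, 0.901, and 0.921 with the rest of their group, against 0.927 or more in every other library, and replicate 1 had 0.959 with the control libraries. Control replicate 3 had a mean correlation of 0.927 with the other controls, against 0.944 and 0.954 for control replicates 1 and 2. Its summed level of 8 neutrophil marker genes was 83.9 CPM, against 3.89 and 9.51 CPM in those libraries. Results of the 8 genes at 14 days are therefore also given without TL14d replicate 1, without TL14d replicate 2, or without control replicate 3 and TL14d replicate 1.

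Of the 8 genes, 6 changed at 3 hours: CCL2, CCL4, CCR1, CCR2, and CCR7 rose and CCL20 fell. Of all genes tested, 45.4% changed, with 23.2% higher and 22.2% lower. The 3 TL3h libraries lay above all controls for 5 of the 8 genes and below them for 1, and 57.3% of all genes were free of overlap, 28.9% above and 28.3% below. At 3 days 5 of the 8 rose, which were CCL2, LOC103351517, CCR1, CCR2, and CCR7, and 0 fell, beside 10.6% higher and 7.0% lower, or 17.6% in all, among the genes tested. Leaving out 1 library at a time, 1 to 6 of the 8 were called at 3 days, beside 359 to 3778 of all genes, against 2608 with all libraries. The TL3d libraries lay above all controls for 6 of the 8 genes, and below them for 0, while 45.5% of all genes were free of overlap, 23.8% above and 21.7% below. At 14 days 0 of the 8 changed, as did 0.0% of all genes, in the edgeR quasi-likelihood test, and 0 of the 8 were free of overlap, beside 11.1% of all genes, 6.03% above and 5.11% below. At an unadjusted p under 0.05, 4 of the 8 and 1538 genes in all differed at 14 days, and both the likelihood-ratio test of edgeR and DESeq2 called 3 of the 8, namely LOC103351517, CCL4, and CCR7, all higher, beside 1.46% (1.29% higher) and 2.49% (1.97% higher) of the genes they tested. Without TL14d replicate 1 the same number, 3 of the 8, was called as higher at 14 days, beside 4.74% of all genes (3.51% higher), and without control replicate 3 and TL14d replicate 1 it was 4 of the 8, beside 6.64% (4.49% higher). The 8 genes had median log2 fold changes of 2.71 in TL3h, 4.05 in TL3d, and 3.04 in TL14d, against medians of 0.02, 0.0, and 0.02 over all genes tested. As the 8 were chosen with earlier results of these data known, these medians do not test CC chemokine genes as a family. The 18 other chemokine genes tested, described below, had medians of 0.52 in TL3h, 0.40 in TL3d, and -0.12 in TL14d. TL14d replicate 2 was the highest library of its group for 7 of the 8, and without it their median at 14 days was 0.70, against 3.60 without TL14d replicate 1. The 3 comparisons share the same control libraries.

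**Figure D1:**
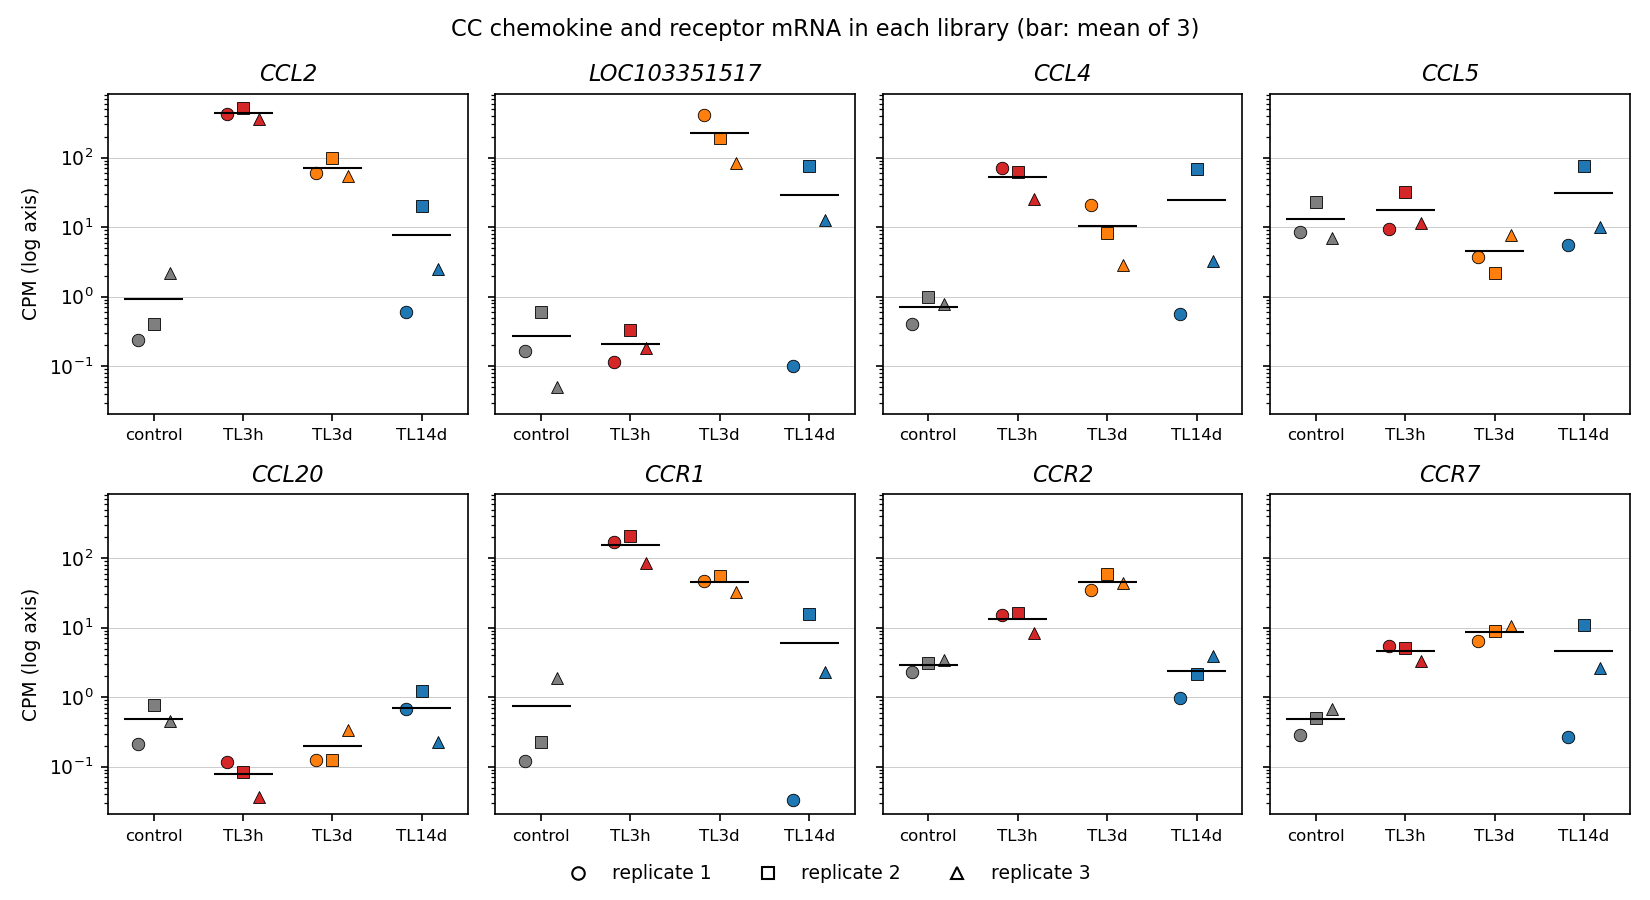
Level of each chemokine and receptor gene in CPM on a log axis in the 12 libraries. Circles, squares, and triangles are replicates 1, 2, and 3, and the bar is the mean of 3. CCL2, CCR1, and CCL4 stand highest on average in TL3h, LOC103351517, CCR2, and CCR7 in TL3d, and TL14d replicate 1 is the lowest library of its group for 7 of the 8 genes.

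CCL2, which encodes monocyte chemotactic protein-1, stood highest at 3 hours. In the control group it was at 0.237, 0.400, and 2.18 CPM in replicates 1, 2, and 3. The TL3h libraries were at 418, 517, and 360 CPM, the TL3d libraries at 60.3, 98.1, and 53.9 CPM, and the TL14d libraries at 0.605, 20.1, and 2.47 CPM. All TL3h libraries were above all TL3d libraries and these above all others, whereas the TL14d and control libraries overlapped. Against control, CCL2 rose by a log2 fold change of 8.84 (standard error, SE, 1.44, q = 0.000841) at 3 hours and 6.23 (SE 1.29, q = 0.0166) at 3 days, while at 14 days the value was 3.04 (q = 0.422). Control replicate 3 was above the other controls, and without it the log2 fold changes were 10.34 at 3 hours and 7.77 at 3 days. The call at 3 days was lost without control replicate 1 (q = 0.0597), control replicate 2 (q = 0.0635), or TL3d replicate 2 (q = 0.0541). The value at 14 days was 0.72 (q = 0.984) without TL14d replicate 2, 4.58 (q = 0.432) without control replicate 3, 3.59 (q = 0.0699) without TL14d replicate 1, and 5.13 (q = 0.0266) without the last 2 of these. Because whole conjunctiva was sequenced, fewer cells of a type and less RNA per cell cannot be told apart for this or any other gene here.

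LOC103351517 had a different time course from CCL2, a gene of the same cluster. It was at 0.166, 0.600, and 0.0502 CPM in the control libraries and at 0.115, 0.332, and 0.183 CPM in the TL3h libraries. At 3 days the libraries held 410, 191, and 83.5 CPM, and at 14 days 0.101, 74.6, and 12.5 CPM. The control and TL3h libraries overlapped near the level of 3 counts, every TL3d library was far above both, and at 14 days TL14d replicate 1 was within the control range while the other 2 were above it. The log2 fold change was -0.38 at 3 hours (SE 1.96, q = 0.893) and 0.90 without control replicate 2, and at 3 days it was 9.69 (SE 1.92, q = 0.0149). The call at 3 days was lost without control replicate 1 (q = 0.0597) or control replicate 2 (q = 0.0542, log2 fold change 10.98), and without TL3d replicate 1 it held at 8.96 (q = 0.0480). At 14 days the log2 fold change was 6.72 (q = 0.346), and it was 7.31 (q = 0.0124) without TL14d replicate 1, 4.52 (q = 0.978) without TL14d replicate 2, and 6.82 (q = 0.0237) without control replicate 3 and TL14d replicate 1. Over all alternatives the value at 14 days ran from 4.52 to 8.01.

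The gene with the symbol CCL7 was chosen after its values were seen, because it carries the same description as LOC103351517. CCL7 was at 0.226 to 0.475 CPM in the control group, at 48.2, 119, and 123 CPM in the TL3h libraries, and at 40.4, 48.6, and 27 CPM in the TL3d libraries. It rose at 3 hours by a log2 fold change of 8.19 (SE 0.77, q = 5.53e-05) and at 3 days by 6.86 (SE 0.73, q = 0.00695). At 14 days it was at 0.706, 4.32, and 3.06 CPM, all above control, with a log2 fold change of 3.03 (q = 0.346), and of 3.48 (q = 0.0104) without TL14d replicate 1, 2.51 (q = 0.978) without TL14d replicate 2, and 3.26 (q = 0.0223) without control replicate 3 and TL14d replicate 1. From 3 to 14 days it fell (log2 fold change -3.83, q = 0.0248), a call lost without TL3d replicate 1 (q = 0.0856), TL3d replicate 2 (q = 0.0948), or TL14d replicate 3 (q = 0.0727), or with only the libraries compared in the fit (q = 0.0857). At 3 hours every CCL7 value was above all controls, and no LOC103351517 value was. Reads that fit several places can be split between such copies, and 16.7% of the LOC103351517 values, 33.3% of the CCL2 values, and 41.7% of the CCL7 values were fractions.

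CCL4 encodes macrophage inflammatory protein-1 beta, which attracts monocytes and T cells. The control libraries were at 0.403, 0.976, and 0.778 CPM, and the TL3h libraries at 71.2, 61.7, and 25.7 CPM. The TL3d libraries were at 20.5, 8.22, and 2.90 CPM, and the TL14d libraries at 0.572, 68.9, and 3.26 CPM. The TL3h and TL3d libraries were all above control, and a single TL14d library reached the TL3h level. CCL4 rose at 3 hours (log2 fold change 6.19, SE 1.61, q = 0.0102). At 3 days the log2 fold change was 3.87 (SE 1.46, q = 0.0879), and 2.95 (q = 0.233) without TL3d replicate 1. It was called with q = 0.0340 without TL14d replicate 1 and 0.0190 without TL14d replicate 2, 2 libraries outside this comparison. Leaving them out changes the shared estimate of spread and also the genes tested, which were 15114 and 15093, against 14835 with all libraries. It was also called by the likelihood-ratio test (q = 0.0223), by DESeq2 (q = 0.00667), and with only the libraries compared in the fit (q = 0.0273), each of which called 6 of the 8 genes at 3 days, all higher, beside 21.3% (12.3% higher), 30.3% (16.3%), and 22.6% (12.7%) of all genes. Without TL14d replicate 1 or 2, 6 of the 8 were likewise called as higher, beside 25% (14.4% higher) and 19.8% (11.6%). At 14 days it was 5.07 (q = 0.357), and 5.65 (q = 0.0386) without TL14d replicate 1, 1.41 (q = 0.978) without TL14d replicate 2, and 5.70 (q = 0.0659) without control replicate 3 and TL14d replicate 1.

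The CCL4 gene overlaps LOC100348776, a gene annotated as a C-C motif chemokine 3-like 1 and named after its values were seen, by 645 bases on the opposite strand. Whether the counting used strand is not given in the sources used here, and 83.3% of the values of each of the 2 genes were fractions, so their values are uncertain. LOC100348776 was at 0.0251 to 0.375 CPM in the control group, 5.12 to 6.68 CPM in TL3h, 1.02 to 13.9 CPM in TL3d, and 0, 35.4, and 1.95 CPM in TL14d. Its q was 0.0637 in TL3h, 0.108 in TL3d, and 0.395 in TL14d. The log2 fold change in TL14d was 5.96, and it was 2.29 (q = 0.978) without TL14d replicate 2, 6.54 without TL14d replicate 1, where q was just above the threshold, and 6.03 (q = 0.0817) without control replicate 3 and TL14d replicate 1.

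CCL5, also known as RANTES, attracts T cells, monocytes, and eosinophils. In the control group it was at 8.62, 23.2, and 7.07 CPM. The TL3h libraries were at 9.53, 32.2, and 11.5 CPM, the TL3d libraries at 3.67, 2.22, and 7.74 CPM, and the TL14d libraries at 5.45, 76.3, and 9.96 CPM. Each operated group overlapped the control group. The log2 fold changes were 0.45 at 3 hours (SE 0.94, q = 0.729), -1.51 at 3 days (SE 0.97, q = 0.283), and 1.24 at 14 days (SE 0.95, q = 0.676). The value at 3 hours was -0.35 without TL3h replicate 2 and 1.18 without control replicate 2, and that at 3 days was -0.79 without control replicate 2 and -2.13 without TL3d replicate 3. The value at 14 days was -0.75 without TL14d replicate 2, 1.74 without TL14d replicate 1, and 1.43 without control replicate 3 and TL14d replicate 1.

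CCL20, the ligand of CCR6 that epithelium can secrete, held between 1 and 45 counts in each of the 12 libraries. It was at 0.214, 0.775, and 0.451 CPM in the control group and at 0.115, 0.0830, and 0.0366 CPM in TL3h, where the libraries held 3, 2, and 1 counts. The TL3d libraries were at 0.125, 0.123, and 0.341 CPM and the TL14d libraries at 0.672, 1.22, and 0.228 CPM. Every TL3h library was below every control library, and the groups at 3 and 14 days overlapped the control group. CCL20 fell at 3 hours in the fit across all genes (log2 fold change -2.57, SE 0.82, q = 0.0275), a value that depends on the prior count at such levels. The 58 pooled control counts against 6 in TL3h gave a ratio of 6.14 per unit of library size (95% exact interval 2.66 to 17.4, counting error only). The call was lost without control replicate 2 (q = 0.0984), TL3h replicate 2 (q = 0.0667), or TL3h replicate 3 (q = 0.0876). With only the control and TL3h libraries in the fit, CCL20 did not pass the filter on low counts and had no value. At 14 days the log2 fold change was 0.56 (SE 0.69, q = 0.804), with 0.60 without TL14d replicate 1, -0.09 without TL14d replicate 2, and 0.55 without control replicate 3 and TL14d replicate 1.

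Levels of different genes can be set side by side only per transcript length, for which the FPKM values of the authors were used. The summed FPKM of the 5 ligands was 13.4 to 36.1 in the control libraries, 555 to 794 in TL3h, 331 to 1230 in TL3d, and 9.95 to 419 in TL14d. These FPKM were not scaled by TMM, so the TL3h sums are not on the scale of the CPM values against the other groups. Shares within a library do not depend on that scaling. In the control libraries CCL5 made up 63.4% to 89.0% of that sum. At 3 hours CCL2 made up 90.3% to 94.3% in every library. At 3 days LOC103351517 made up 64.4% to 88.0% and CCL2 9.81% to 31.5%. At 14 days CCL5 made up 74.9% in replicate 1 and 25.2% and 24.8% in replicates 2 and 3, where LOC103351517 made up 47.4% and 59.7%. Among these 5, the largest share was thus that of CCL5, CCL2, and LOC103351517 in all 3 libraries of control, TL3h, and TL3d. The TL14d libraries differed from each other. Ligands outside the 5 did not enter these shares. CCL21 and CCL14, named after their values were seen, averaged 83.7 and 46.1 FPKM in the control group, against 17.7 for CCL5. The other listed ligands averaged less than CCL5 there.

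**Figure D2:**
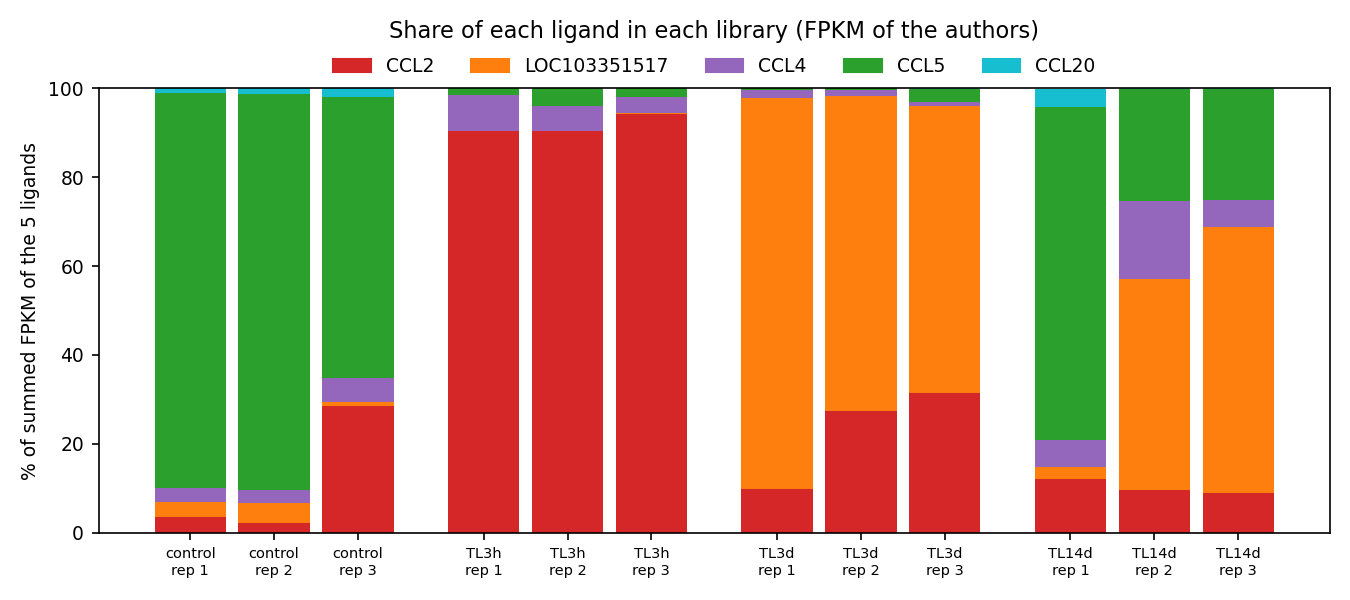
Share of each of the 5 ligands in their summed FPKM, in percent, for each of the 12 libraries. Among these 5, CCL5 leads in control libraries (63.4% to 89.0%), CCL2 in TL3h (90.3% to 94.3%), and LOC103351517 in TL3d (64.4% to 88.0%). TL14d replicate 1 has the CCL5-rich mixture of the controls.

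CCR1, a receptor for CCL5 and CCL7 on monocytes and, in many species, neutrophils, stood highest at 3 hours, like CCL2. Per transcript length it was at 40.6 ± 15.7 FPKM there, against 3.49 ± 1.09 for CCR2 and 1.29 ± 0.3 for CCR7 (SD, n = 3 each). The control libraries were at 0.119, 0.225, and 1.88 CPM, and the TL3h libraries at 173, 208, and 86.0 CPM. The TL3d libraries were at 47.3, 54.8, and 32.3 CPM, and the TL14d libraries at 0.0336, 15.7, and 2.34 CPM. The TL3h, TL3d, and control libraries did not overlap, and TL14d spanned the controls from below the lowest to above the highest. CCR1 rose by a log2 fold change of 7.71 at 3 hours (SE 1.63, q = 0.00361) and 5.91 at 3 days (SE 1.52, q = 0.0286). These were 9.75 and 7.99 without control replicate 3, and the call at 3 days was lost without control replicate 1 (q = 0.0926), control replicate 2 (q = 0.0980), TL3d replicate 1 (q = 0.0704), or TL3d replicate 2 (q = 0.0755). At 14 days the log2 fold change was 3.03 (q = 0.482), and 0.69 (q = 0.988) without TL14d replicate 2. It was 5.11 (q = 0.432) without control replicate 3, 3.61 (q = 0.0857) without TL14d replicate 1, and 5.69 (q = 0.0241) without both of these.

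CCR2, the receptor of CCL2 and CCL7 that marks monocytes released from bone marrow, reached its highest level at 3 days. It was at 2.28, 3.10, and 3.46 CPM in the controls, 15.4, 16.5, and 8.34 CPM in TL3h, and 34.3, 58.3, and 43.8 CPM in TL3d. The TL14d libraries were at 0.975, 2.17, and 3.97 CPM. The control, TL3h, and TL3d libraries did not overlap, and the TL14d libraries surrounded the control range. CCR2 rose by a log2 fold change of 2.19 at 3 hours (SE 0.46, q = 0.00357) and 3.95 at 3 days (SE 0.49, q = 0.00695). At 14 days the value was -0.31 (SE 0.45, q = 0.838), with 0.06 without TL14d replicate 1, -0.25 without TL14d replicate 2, and 0.18 without control replicate 3 and TL14d replicate 1. Both calls held under each alternative tried.

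CCR7, the homing receptor of mature dendritic cells and naive T cells, was at 3.42 ± 0.764 FPKM at 3 days, against 16.6 ± 4.62 for CCR2 and 16.5 ± 4.56 for CCR1 (SD, n = 3 each). The control libraries were at 0.285, 0.5, and 0.677 CPM, the TL3h libraries at 5.38, 5.10, and 3.29 CPM, and the TL3d libraries at 6.47, 9.05, and 10.6 CPM. The TL14d libraries were at 0.269, 10.8, and 2.67 CPM. All TL3h and TL3d libraries were above control and did not overlap each other, whereas 1 TL14d library was below the controls and 2 above. CCR7 rose by a log2 fold change of 3.23 at 3 hours (SE 0.96, q = 0.0199) and 4.15 at 3 days (SE 1.0, q = 0.0236). The call at 3 hours was lost without control replicate 1 (q = 0.0732) or 2 (q = 0.0622), and that at 3 days without control replicate 1 (q = 0.0871), control replicate 2 (q = 0.0804), TL3d replicate 1 (q = 0.0600), or TL3d replicate 2 (q = 0.0674). At 14 days the value was 3.23 (q = 0.351), and 3.79 (q = 0.0137) without TL14d replicate 1, 1.59 (q = 0.978) without TL14d replicate 2, and 4.09 (q = 0.0215) without control replicate 3 and TL14d replicate 1.

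**Figure D3:**
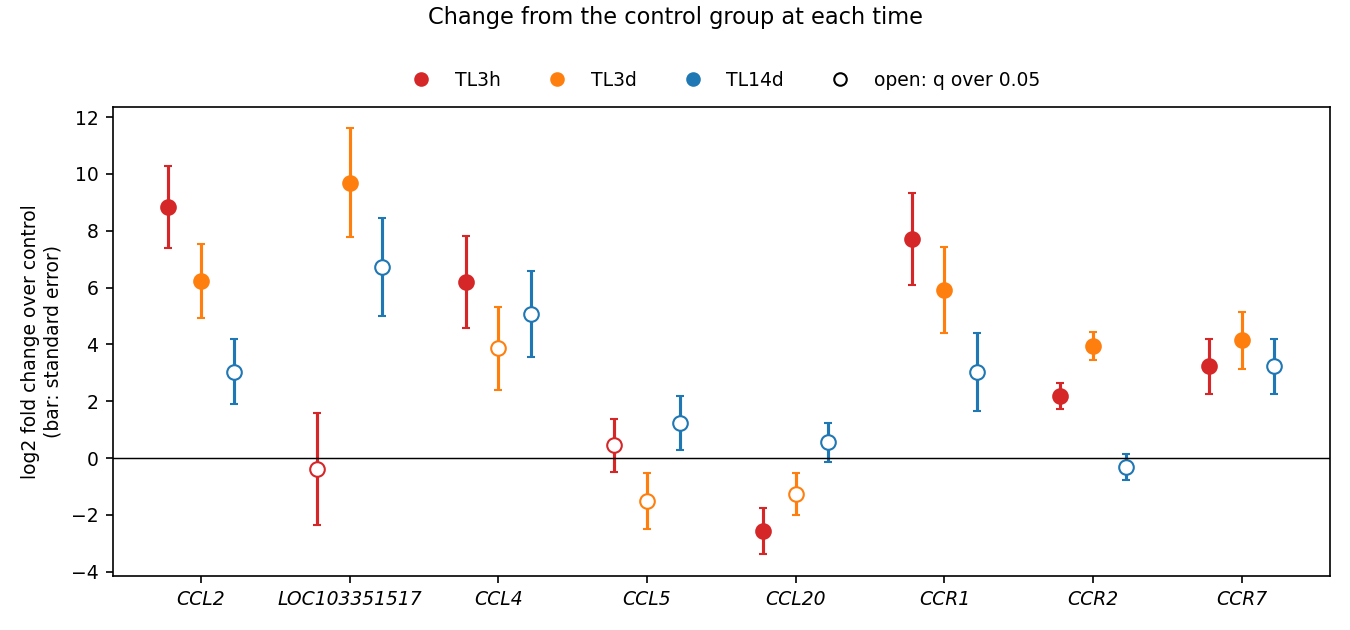
Log2 fold change over the control group for each gene in TL3h, TL3d, and TL14d, with standard errors. Filled points have q at or under 0.05 and open points do not. At 3 hours 6 of the 8 points are filled and at 3 days 5, while all 14-day points are open.

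From 3 hours to 3 days, LOC103351517 rose by a log2 fold change of 10.07 (SE 2.0, q = 0.00325), with 9.34 without TL3d replicate 1, and CCR2 by 1.76 (SE 0.45, q = 0.0122). These were 2 of the 8 genes called, beside 37.3% of all genes tested, 18.4% higher and 19% lower. The TL3d libraries lay above all TL3h libraries for 4 of the 8 genes and below them for the other 4, beside 54.7% of all genes without overlap, 26.2% above and 28.5% below. The genes with lower TL3d libraries were CCL2 (log2 fold change -2.61, SE 1.07, q = 0.0802), CCL4 (-2.33, q = 0.193), CCL5 (-1.97, q = 0.140), and CCR1 (-1.80, q = 0.276), none of which passed the threshold. Those with higher TL3d libraries beside the called genes were CCL20 (1.29, q = 0.254) and CCR7 (0.92, q = 0.431). With only the TL3h and TL3d libraries in the fit, 6 of the 8 were called, 3 higher (CCR7 added) and 3 lower (CCL2, q = 0.00168; CCL4, q = 0.0496; CCR1, q = 0.0125), beside 40.9% of all genes, 20.5% higher and 20.4% lower. Without TL14d replicate 2 in the fit, CCL2 (q = 0.0208), CCL4 (q = 0.0455), and CCL5 (q = 0.0476) were called as lower, beside 37.5% of all genes (19.4% lower). CCL2 was called as lower also without TL14d replicate 1 (q = 0.0347, beside 41.2%, 20.8% lower), by the likelihood-ratio test (q = 0.0390, beside 37.6%, 19.2% lower), and by DESeq2 (q = 0.0264, beside 44.9%, 21.8% lower). Without control replicate 3 and TL14d replicate 1, CCL2 (q = 0.0129) and CCR1 (q = 0.0486) were called as lower beside the 2 genes called as higher, while 43.3% of all genes were called, 22.2% higher and 21.2% lower. Among values not called, those of CCL4 (-3.24 without TL3d replicate 1), CCL5 (-1.18 without TL3h replicate 2 and -2.59 without TL3d replicate 3), and CCL20 (0.65 without TL3d replicate 3) moved by over 1.5 times.

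From 3 to 14 days, CCR2 fell (log2 fold change -4.26, SE 0.50, q = 0.0190), the only call among the 8 genes, beside 2.24% of all genes tested, 0.647% higher and 1.59% lower. The TL14d libraries lay below all TL3d libraries for 4 of the 8 genes, CCL2 (log2 fold change -3.19, q = 0.134), LOC103351517 (-2.97, q = 0.235), CCR1 (-2.88, q = 0.221), and CCR2, and 27.4% of all genes were free of overlap, 13.4% above and 14.0% below. The values were -0.92 for CCR7 (q = 0.565), 1.20 for CCL4 (q = 0.613), 1.84 for CCL20 (q = 0.178), and 2.75 for CCL5 (q = 0.151). The CCR2 call was lost without TL3d replicate 1 (q = 0.0554) or TL3d replicate 2 (q = 0.0855) and with only the TL3d and TL14d libraries in the fit (q = 0.0647), where 0.105% of all genes were called. Without TL14d replicate 2, CCL2 was also called as lower, at -5.52 (q = 0.0415), beside 3.87% of all genes (2.29% lower), and the value for CCL4 turned to -2.46 (q = 0.141). CCL2 was also called as lower by the likelihood-ratio test (q = 0.0458) and DESeq2 (q = 0.0178), and CCL5 as higher by DESeq2 (q = 0.0248), where these tests called 7.46% (4.62% lower) and 12.5% (6.84% lower and 5.7% higher) of all genes. Without TL14d replicate 2 the other values were -5.18 for LOC103351517, -5.23 for CCR1, -2.56 for CCR7, 0.76 for CCL5, and 1.18 for CCL20, none of them called. Without TL3d replicate 1 those of LOC103351517 and CCL4 were -2.24 and 2.13, and without TL3d replicate 3 those of CCL5 and CCL20 were 3.37 and 2.48.

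TMM scaling factors of the TL3h libraries were 0.768 to 0.783, whereas those of the other libraries were 1.03 to 1.13. With library size alone, the median of log2 fold changes over all genes tested was -0.47 at 3 hours, and 25% of the calls were higher, against 51.0% with TMM. From 3 hours to 3 days that median was 0.43, and 80.5% of the calls were higher, against 49.2%. The calls among the 8 genes were 5 higher and 1 lower at 3 hours and 2 higher from 3 hours to 3 days under both scalings, and the direction of CCL5 at 3 hours turned, to -0.07.

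The other genes of the CC chemokine system came from a list of 29 symbols of ligands and receptors, of which 25 were found in 27 rows of the table. Of these rows, 18 were tested, and the other 9 did not pass the filter on low counts. At 3 hours 5 of the 18 rose and 1 fell, beside 23.2% higher and 22.2% lower among all genes tested. At 3 days 4 rose and 0 fell, beside 10.6% and 7.0%, and at 14 days 0 changed, beside 0.0%. The median log2 fold changes of the 18 were 0.52, 0.40, and -0.12. Among the ligands, LOC103351522, described as C-C motif chemokine 23, rose at 3 hours from 0.150 to 2.03 CPM in the control group to 74.5, 60.2, and 26.4 CPM (log2 fold change 6.07, q = 0.00488). The TL3d libraries held 43.6, 16.5, and 5.04 CPM (log2 fold change 4.76, q = 0.0334), a call lost without control replicate 1 (q = 0.104), control replicate 2 (q = 0.102), TL3d replicate 1 (q = 0.102), or TL3d replicate 2 (q = 0.0755). That call was also lost with the replicate number as a block (q = 0.0746) and with only the libraries compared in the fit (q = 0.0542). Without control replicate 3 its values were 8.12 at 3 hours and 6.85 at 3 days. CCL11, or eotaxin, which attracts eosinophils, held 3 counts or fewer in each control library. Its pooled counts gave ratios of 16.4 (95% exact interval 7.58 to 42.3) at 3 hours and 73.0 (35.1 to 183) at 3 days, with q = 0.00807 and 0.0105, and the TL3d libraries were at 0.400, 7.91, and 5.07 CPM. Without TL3d replicate 2 the fitted log2 fold change at 3 days was 5.48 (q = 0.0428), against 6.18 with all libraries. Lymphotactin (LOC100349255), a chemokine of T and natural killer cells, fell at 3 hours (log2 fold change -3.22, q = 0.0149), though control replicate 3, at 0.150 CPM, was as low as TL3h and the other controls were at 3.25 and 3.15 CPM. Without control replicate 3 the value was -3.82, and without TL3h replicate 1 q was 0.0520.

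Among the other receptors, CCRL2, an atypical receptor that presents chemerin, rose at 3 hours to 221, 170, and 76.2 CPM from 0.356, 0.375, and 3.31 CPM (log2 fold change 6.85, q = 0.00124), and at 3 days by 4.24 (q = 0.0270). Without control replicate 3 these were 8.67 and 6.09, and the call at 3 days was lost without control replicate 1 (q = 0.0879), control replicate 2 (q = 0.0882), TL3d replicate 1 (q = 0.0844), or TL3d replicate 2 (q = 0.0674), or with the replicate number as a block (q = 0.0503). ACKR2, a decoy receptor that removes inflammatory CC chemokines, rose at 3 hours (log2 fold change 2.61, q = 0.0151) and fell from 3 hours to 3 days (-3.09, q = 0.00937). Its rise was not called without control replicate 1 (q = 0.0585), control replicate 2 (q = 0.0597), or TL3h replicate 2 (q = 0.0659, log2 fold change 1.94), and was 3.3 without control replicate 3. The fall of ACKR2 was -2.42 (q = 0.0374) without TL3h replicate 2. CCR4, a receptor of type 2 helper and skin-homing T cells, rose at 3 hours (log2 fold change 2.01, q = 0.0177), but not without control replicate 1 (q = 0.0652) or TL3h replicate 2 (q = 0.0651).

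XCR1, the lymphotactin receptor of cross-presenting dendritic cells, rose at 3 days against control (log2 fold change 2.15, q = 0.0455) and against 3 hours (2.10, q = 0.0281). It was at 4.07, 4.40, and 5.89 CPM in TL3d and at 1.76 CPM or less in the control and TL3h libraries, yet the call against control was lost without control replicate 1 or 2, TL14d replicate 3, or any TL3h or TL3d library (q = 0.0552 to 0.136), and without the filter on low counts (q = 0.0535). The call against 3 hours was lost without any TL3h library or TL3d replicate 2 or 3 (q = 0.0559 to 0.0838). CCL24, another eotaxin, was called as higher in TL3d than in TL3h (log2 fold change 4.70, q = 0.0441) with 11.5 CPM in TL3d replicate 1 and 0.431 and 0.313 CPM in the others, and without that library the value was 1.26 (q = 0.469). Its call was also lost without control replicate 2, TL3h replicate 2 or 3, or any TL14d library (q = 0.0504 to 0.128), without control replicate 3 and TL14d replicate 1 (q = 0.0541), and with only the libraries compared in the fit (q = 0.0826). CCL11 fell from 3 to 14 days, with a ratio of TL3d to TL14d counts of 67.9 (31.0 to 186, q = 0.0267), and lost that call without control replicate 2, TL3d replicate 2 or 3, or TL14d replicate 1 or 3 (q = 0.0504 to 0.0948), without control replicate 3 and TL14d replicate 1 (q = 0.0665), and with only the libraries compared in the fit (q = 0.109). From 3 hours to 3 days 2 of the 18 rose and 1 fell, beside 18.4% higher and 19% lower among all genes tested, and from 3 to 14 days 0 rose and 1 fell, beside 0.647% and 1.59%.

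**Figure D4:**
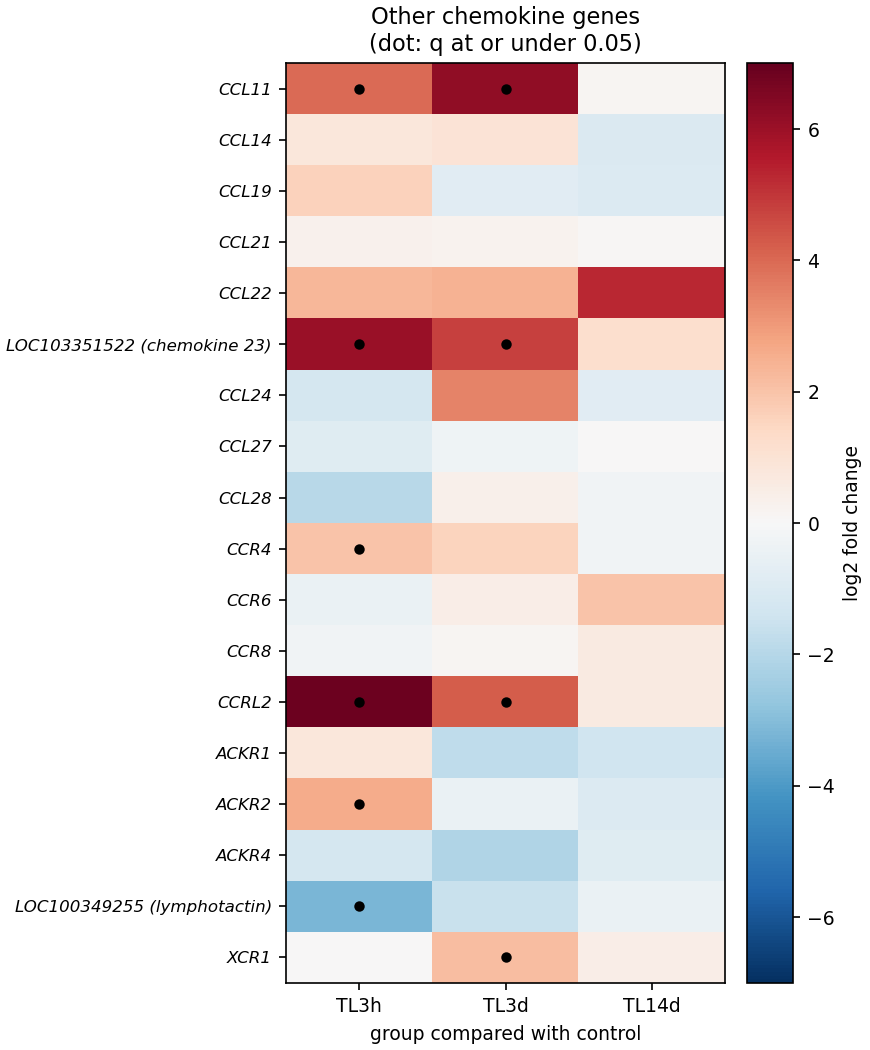
Log2 fold change over control of the 18 other chemokine and receptor genes that passed the filter, in TL3h, TL3d, and TL14d, as colors from blue (lower) to red (higher). Dots mark q at or under 0.05, on 6 genes in TL3h, 4 in TL3d, and 0 in TL14d.

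Marker genes of leukocytes were summed in each library, and their calls stand beside 23.2% of all genes higher and 22.2% lower at 3 hours, and 10.6% higher and 7.0% lower at 3 days. The summed level of 8 neutrophil markers was 3.89 to 83.9 CPM in the control group, 1060 to 2810 CPM in TL3h, 128 to 740 CPM in TL3d, and 3.56 to 117 CPM in TL14d, and 7 of 7 tested markers rose at 3 hours and 1 of 7 at 3 days. The 8 monocyte and macrophage markers summed to 110 to 842 CPM in the control group, 770 to 1180 CPM in TL3h, 1420 to 2250 CPM in TL3d, and 156 to 453 CPM in TL14d, with 2 of 8 called as higher at 3 hours (CD14 and CD68) and 4 at 3 days (AIF1 and CSF1R added). The 9 dendritic cell markers, a list that includes the chemokine CCL22, summed to 6.22 to 26.9, 45.3 to 56.8, 64.9 to 90.7, and 8.17 to 173 CPM in the 4 groups, with 1 of 8 tested higher at 3 hours (CD83) and 5 at 3 days, and BATF3 was at 0 in the control libraries. The 9 T cell markers summed to 18.7 to 47.4 CPM in the control group and to 13.4 to 26.3, 11.9 to 33.1, and 14.0 to 23.6 CPM in TL3h, TL3d, and TL14d, and 1, CD3D, fell at 3 hours. Summed B cell markers stayed between 1.59 and 10.6 CPM, with MS4A1 higher at 3 hours and 3 days and PAX5 lower at 3 hours. At 14 days 0 markers of these lists were called. The part of these markers in the chemokine and receptor results was not tested.

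**Figure D5:**
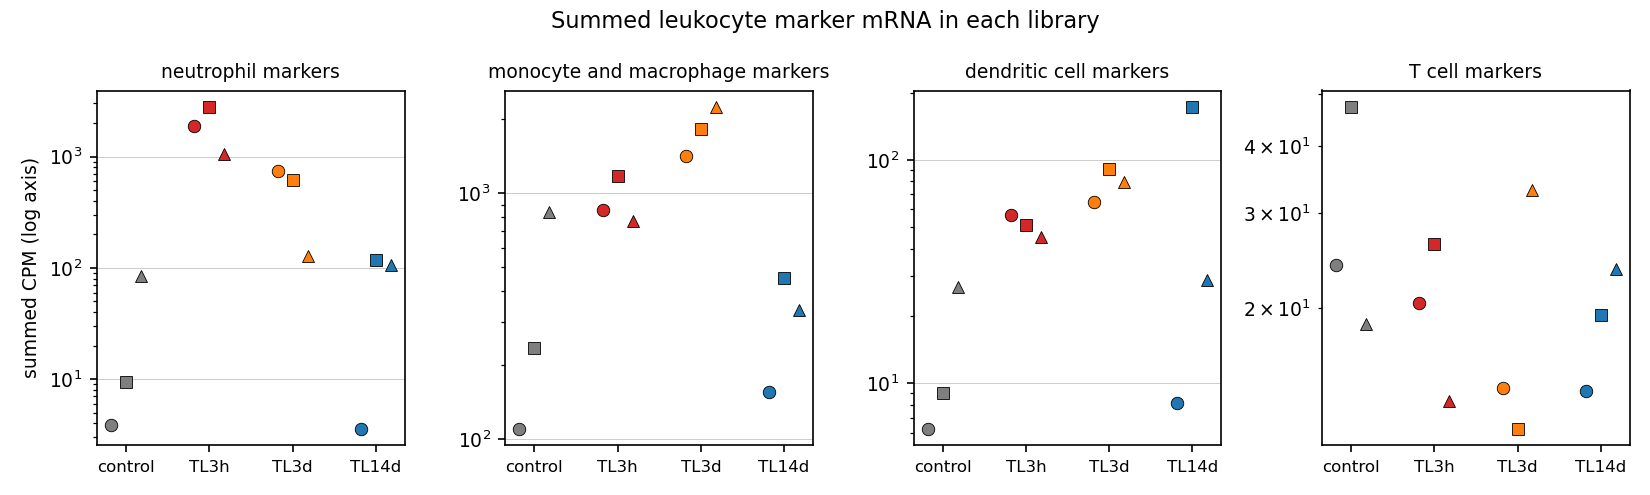
Summed CPM of neutrophil, monocyte and macrophage, dendritic cell, and T cell markers in each library, on log axes. Circles, squares, and triangles are replicates 1, 2, and 3. Neutrophil sums are highest in TL3h (1060 to 2810 CPM) and monocyte and macrophage sums in TL3d (1420 to 2250 CPM), and TL14d replicate 1 has the lowest TL14d sum in all 4 lists.

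The tissue label was checked on markers of conjunctival epithelium. The 6 of these genes that the table holds summed to 6010 to 18400 CPM in the 12 libraries, while KRT13, KRT14, KRT19, and MUC5AC have no row there. Of the 6, EPCAM was called as higher and AQP5 as lower at 3 hours, beside 23.2% and 22.2% of all genes, and KRT5 as higher at 3 days, beside 10.6%. Fibroblast markers summed to 8620 to 53500 CPM in the control group, 69700 to 88200 CPM in TL3h, 1090 to 45300 CPM in TL3d, and 7380 to 39500 CPM in TL14d, with 0 of 6 called in each of the 3 comparisons with control. Endothelial markers summed to 67.4 to 290 CPM among controls, 630 to 1250 CPM in TL3h, 300 to 559 CPM in TL3d, and 90.0 to 290 CPM in TL14d. Of 6 tested, PECAM1 and CDH5 were called as higher at 3 hours, beside 23.2% of all genes, while VWF, CLDN5, TEK (log2 fold change -0.35), and KDR (-0.82) were not called, and 0 of 6 were called at 3 and 14 days.

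Across the 12 libraries, the genes with the most similar pattern to each of the 8 were found by the Pearson correlation of log2 CPM (pseudocount 0.5) among 13246 genes. For CCL2 these were RBM18 (r = 0.994) and BCL2A1 (0.989), for CCR1 they were PTAFR (0.991) and CTSE (0.990), and for LOC103351517 they were AVPR2 (0.994) and MPP3 (0.990). CCL4 had EGR2 (0.966) and IL1B (0.961), CCR2 had HTR7 (0.962) and GPR65 (0.960), and CCR7 had PILRA (0.982) and CD40 (0.979). The likeness was weaker for CCL20, with MRPL48 (0.864) and ACAD11 (0.855), and for CCL5, with ZBTB41 (0.833) and LAPTM4B (0.814). Between the 8 genes themselves, CCL2 had r = 0.99 with CCR1, 0.73 with CCR2, and 0.22 with LOC103351517. These values describe 12 libraries in 4 groups that share the same time course, and no p is attached to them.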

How the data were processed

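RNA was sequenced in 12 libraries, 3 for each of control, TL3h, TL3d, and TL14d, grouped by their labels. Paired-end reads were aligned by the authors to OryCun2.0 with STAR (2.6.0c per the processing notes) and summarised in GeneData Profiler Genome. They deposited estimated counts per gene and transcript, not scaled to library size, of which 23.4% per gene were fractions. They also deposited FPKM values, which the authors had divided by length and depth and which served here for shares between ligands. The estimated counts were rounded, filtered with filterByExpr (minimum count 10, minimum total 15; 14835 of 20566 genes kept), and scaled by TMM. All 12 libraries entered 1 quasi-likelihood fit (edgeR 4.0.16, R 4.3.3) without covariates, for 5 comparisons, with Benjamini-Hochberg adjustment over all genes. The design had been written for counts, and its test was kept for the rounded estimates.

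The 8 genes, the list of other chemokine genes, and the marker lists were chosen with earlier results of these data known. All 8 genes, and those of the list called in at least 1 comparison, were named. A gene of the planned list is not reported here. For genes of like pattern, the 2 highest correlations were named, among genes whose mean reached 1 CPM. Intervals and floors cover counting error only. On simulated data with 14835 genes for TL3h against control, 91 of 100 genes changed 8-fold and 10 of 100 changed 2-fold were recovered, with 4 false calls. The simulated spread was the trend over all genes, and the 200 changed genes had a mean of at least 1 CPM. Genes with a wider spread or fewer counts may be recovered less often. Alternatives were 7 other fits, among them DESeq2 1.42.0, 12 that left out 1 library each, and 1 chosen after seeing the data, without control replicate 3 and TL14d replicate 1. Within a group, squared differences of counts were at least 81.0 times the counting variance, so no library was a copy of another. All 8 genes matched the RefSeq gene table of another assembly by gene ID. No sequence was used here.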

Additional observations from a re-analysis of the deposited data

Results flagged for a closer look

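For 2 of the 8 genes, the effect of surgery differed between time points in the edgeR quasi-likelihood test of the difference itself (Benjamini-Hochberg over all genes), beside 37.3% of all genes from 3 hours to 3 days and 2.24% from 3 to 14 days. LOC103351517 had a log2 fold change 10.07 higher at 3 days than at 3 hours (q = 0.00325), with all 3 TL3d libraries above all 3 TL3h libraries. CCL2, also on chromosome 19, had lower TL3d than TL3h libraries. CCR2 was 1.76 higher at 3 days than at 3 hours (q = 0.0122), again in all 3 libraries. Its log2 fold change was -4.26 at 14 days against 3 days (q = 0.0190), with all TL14d libraries below all TL3d libraries, and this call was lost without TL3d replicate 1 (q = 0.0554) or 2 (q = 0.0855) and with only the TL3d and TL14d libraries in the fit (q = 0.0647). As both effects in each pair were measured against the same control libraries, each difference equals the direct comparison of the operated groups.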

How the results depend on the processing

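CCL2, CCL4, CCR1, and CCR2 at 3 hours, CCR2 at 3 days, and LOC103351517 and CCR2 from 3 hours to 3 days kept their direction and their call under all alternatives. Of 797 values of the 8 genes under alternatives, counting only fits that gave a value, 21 lost the call, 34 gained it, 8 turned sign, and 734 did none of these. The cause of these changes was not tested. The sign turned for LOC103351517 at 3 hours without control replicate 2 (0.90), for CCL5 at 3 hours with library size only (-0.07) and without TL3h replicate 2 (-0.35), for CCL5 (-0.75) and CCL20 (-0.09) at 14 days without TL14d replicate 2, for CCR2 at 14 days without TL14d replicate 1 (0.06) and without that library and control replicate 3 (0.18), and for CCL4 from 3 to 14 days without TL14d replicate 2 (-2.46). Over single libraries left out, these ran from -0.91 to 0.90 for LOC103351517, -0.35 to 1.18 for CCL5 at 3 hours, -0.75 to 1.96 for CCL5 and -0.09 to 1.09 for CCL20 at 14 days, -0.90 to 0.06 for CCR2, and -2.46 to 2.13 for CCL4.

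Leaving out 1 library at a time, the number of the 8 genes called was 4 to 6 at 3 hours, 1 to 6 at 3 days, 0 to 3 at 14 days, 2 to 5 from 3 hours to 3 days, and 0 to 2 from 3 to 14 days. The numbers over all genes were 5280 to 7271 (6733 with all libraries), 359 to 3778 (2608), 0 to 716 (0), 3954 to 6231 (5537), and 0 to 584 (332). Without control replicate 3 and TL14d replicate 1, 4 of the 8 and 999 genes were called at 14 days and 4 of the 8 and 6525 genes from 3 hours to 3 days. The likelihood-ratio test called 3 of the 8 and 216 genes at 14 days and 2 of the 8 and 1106 genes from 3 to 14 days. DESeq2 called 4471 genes at 3 days, 3 of the 8 and 367 genes at 14 days, and 3 of the 8 and 1850 genes from 3 to 14 days. With only the libraries compared, 6 of the 8 and 5823 genes were called from 3 hours to 3 days, and 0 of the 8 and 15 genes from 3 to 14 days. Of 17 calls on other chemokine genes, 7 held under all alternatives, which for these genes were added after seeing the data, and none turned sign.

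Libraries with the same replicate number were not treated as pairs, since the sources do not state that these numbers pair eyes. Deviations from the group means correlated between -0.16 and 0.526 in libraries of the same number, over 0.1 for 8 of 18 pairs. Of 12 libraries, 9 correlated best with a library of their own number. With the replicate number as a block, the numbers of the 8 genes called did not change (6, 5, 0, 2, and 1), and 6946, 2719, 0, 5831, and 288 genes were called in the 5 comparisons. At 3 days the block took LOC103351522 (q = 0.0746) and CCRL2 (q = 0.0503) over the threshold. Depth limits CCL20, and LOC103351517 in the control and TL3h groups, which held few counts.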

Other observations

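CCL22, a ligand of CCR4 that is made by dendritic cells and macrophages, was at 0.376 to 0.600 CPM in the control group and at 0.740, 53.4, and 2.54 CPM in TL14d replicates 1, 2, and 3, so that all TL14d libraries were above all controls. Its log2 fold change at 14 days was 5.28 (standard error 1.39, q = 0.346 in the edgeR test with Benjamini-Hochberg adjustment). It was 1.75 (q = 0.978) without TL14d replicate 2, 5.84 (q = 0.0240) without TL14d replicate 1, and 5.68 (q = 0.0459) without control replicate 3 and TL14d replicate 1. It was named after its values were seen. TL14d replicate 2 was also the library with the highest 14-day level of 7 of the 8 genes described above.

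The longer model of CCR1 held 92.8% to 96.4% of its counts in TL3h and TL3d, and the longer model of CCL4 held 71.6% to 82.3% of its counts in the same 6 libraries.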
